A study of Mus musculus with 107 samples.

Results

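Chemokines are small secreted proteins that steer leukocytes, and they act through receptors of the G protein-coupled class on the cells they attract. The chemokines and chemokine receptors described here were all probes whose single gene symbol was Ccl, Cxcl, Ccr or Cxcr plus a number, apart from Ccl5. By symbol there were 43 such probes of the 23536 on the array, and 35 of them, for 34 genes, had values off the limits of the scale on at least 90% of 104 arrays, against 20633 probes in all. Cxcl14 had 2 probes, called here probe 1 and probe 2, and every other gene had 1. The other 8 were left out of the results: Ccl20 had values on 92 arrays, Cxcl5 on 90, Ccl12 and Ccr8 on 89, Ccr6 and Ccl11 on 87, Ccr3 on 83 and Ccr9 on 77. Just inside the threshold lay Ccr4 with values on 100 arrays and Cxcr4 with 101.

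The study profiled liver RNA of female F2 mice, of a cross between C57BL/6J and DBA/2J mice, all kept on an atherogenic diet. Each mouse was hybridised on a 2-colour array against 1 pool that held RNA of the mice in equal parts. The labels name 111 mice and 107 arrays were at hand, of which 3 held nothing but 0 or missing values, so 104 mice of 1 group were analysed. No group was treated differently from another, each mouse has its own mixture of the parental genomes, and the comparisons are between mice.

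Values are given as log2 ratios of mouse to pool, converted from the deposited log10 ratios, so that 1 is a doubling relative to the pool. A ratio says nothing of a gene's absolute level, so levels were not compared between genes and the tissue label could not be checked against the level of hepatocyte markers. Direction was not settled, since no dye is named, but mouse over pool is likely from the titles. With all signs turned, high and low mice change places while ranges and correlations stay. Of 5356 pairs of arrays, 18 correlated under -0.3, and whether the sign of any single array was turned was not tested. If it was, ranges and correlations would change. Between 946 and 1828 values stood at either limit on 18 arrays, here called limit-rich, and at most 496 on any of the other 86. Some of the correlations are therefore also given within each set. With no repeated arrays, noise of the arrays is part of every range below, and precision is set by the 104 arrays.

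In the liver, resident macrophages, stellate cells, endothelium and hepatocytes all can make chemokines. The CXC ligands Cxcl1 and Cxcl2 draw neutrophils through Cxcr2, and Ccl2 and Ccl7 draw monocytes through Ccr2. Cxcl9, Cxcl10 and Cxcl11 are induced by interferon gamma and act on T and NK cells through Cxcr3, while Cxcl12, Cxcl13, Ccl19 and Ccl21 guide lymphocytes at rest. Many inflammatory chemokine genes are induced through the transcription factor NF-kB.

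Chemokine probes ranged widely over mice. Of the 35 probes, 26 had a 5th to 95th percentile range above 2-fold, where 47.6% of all probes did, and 16 had one above 4-fold, where 8.58% of all probes did. The median range was 3.27-fold over the 35 probes and 1.96-fold over all probes. These counts are a description with no test, and the folds rest on reading the values as log10. Under the natural logarithm 14 of the 35 would have a range above 2-fold, where 5.27% of all probes would, and 1 above 4-fold, where 0.213% would. Without the limit-rich arrays 13 of the 35 had a range above 4-fold, where 5.16% of all probes did, and 26 above 2-fold, where 36.7% did.

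**Figure D1:**
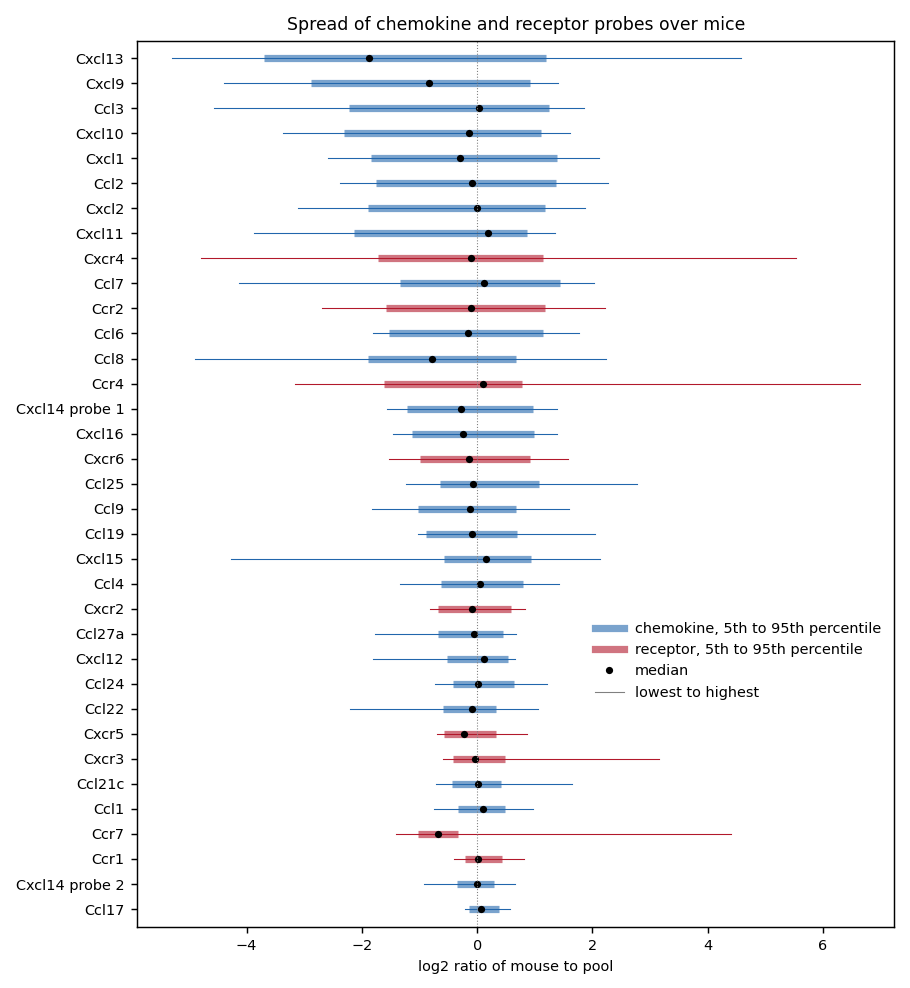
Log2 ratio of mouse to pool for each of the 35 probes, widest range at the top, with the 5th to 95th percentile (bar), lowest to highest (line) and median (point) over up to 104 mice. Ligands are blue and receptors red. Cxcl13 ranged most widely, 29.6-fold, and Ccl17 least, 1.43-fold.

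Of the chemokines that draw neutrophils, Cxcl1 ran from -2.58 in the lowest mouse to 2.11 in the highest, with a median of -0.31, a 9.33-fold range between the 5th and 95th percentiles. Cxcl2 ran from -3.11 to 1.87 with a median of 0.00 (8.34-fold). The values of both genes lay on either side of the pool. Cxcl15, a chemokine known from mouse lung, ran from -4.26 to 2.12 with a median of 0.15 (2.84-fold). Their receptor Cxcr2 ran from -0.81 to 0.83 with a median of -0.09 (2.41-fold, n = 102). None of these 102 mice was more than 2-fold from the pool in Cxcr2, while 1 further array stood at the lower limit and 1 had no value.

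Of the chemokines that draw monocytes, Ccl2 ran from -2.37 to 2.28 with a median of -0.10 (8.66-fold). Ccl7 ran from -4.13 to 2.02 with a median of 0.13 (6.87-fold). Ccl8 ran from -4.90 to 2.24, and its median of -0.78 lay below the pool (5.89-fold). On the 86 other arrays its lowest value was -1.31 and its range 3.54-fold. The receptor Ccr2, the marker of monocytes that enter tissue, ran from -2.70 to 2.21 with a median of -0.10 (6.75-fold, n = 102).

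Of the chemokines of macrophages, Ccl3 ran from -4.56 to 1.85 with a median of 0.03 (11.1-fold). Ccl4, its neighbour on the chromosome, ran from -1.35 to 1.42 with a median of 0.06 (2.65-fold). Ccl6 ran from -1.81 to 1.76 with a median of -0.16 (6.37-fold), and Ccl9 from -1.83 to 1.59 with a median of -0.12 (3.26-fold). The 2 genes are rodent chemokines of myeloid cells. Ccr1, a receptor for several of these, ran only from -0.40 to 0.81 with a median of 0.02 (1.56-fold).

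The 3 interferon-induced chemokines were all wide. Cxcl9 ran from -4.40 to 1.40 with a median of -0.83 (13.9-fold), and 47 mice lay more than 2-fold below the pool. Cxcl10 ran from -3.36 to 1.61 with a median of -0.15 (10.6-fold). Cxcl11, listed as a transcribed pseudogene in assembly GRCm38.p6, ran from -3.87 to 1.34 with a median of 0.19 (7.98-fold, n = 102), with a 4.50-fold range on the 86 other arrays. Their receptor Cxcr3, a marker of T and NK cells, ran from -0.59 to 3.15 with a median of -0.04 (1.86-fold). The value of 3.15 belonged to mouse 26, and the next highest mouse had 0.75.

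Cxcl16, a membrane-bound chemokine made by macrophages and other cells, ran from -1.46 to 1.39 with a median of -0.25 (4.33-fold). Its receptor Cxcr6, found on liver T and NKT cells, ran from -1.54 to 1.58 with a median of -0.14 (3.77-fold). Cxcl14 probe 1 ran from -1.56 to 1.38 with a median of -0.27 (4.53-fold), while probe 2 ran from -0.92 to 0.66 with a median of 0.00 (1.55-fold). The probes of this gene did not follow each other (r = -0.218, rho = -0.299, n = 104), so no level is given for the gene and each probe is described alone.

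Cxcl13, the chemokine that draws B cells, had the widest range, from -5.30 to 4.57 with a median of -1.87 (29.6-fold). In 83 mice it lay more than 2-fold below the pool and in 6 more than 2-fold above it, with the highest values in mice 99, 157 and 7. Its receptor Cxcr5, on B cells and follicular T cells, ran from -0.69 to 0.87 with a median of -0.23 (1.87-fold). Cxcl12, made by stromal cells, ran from -1.81 to 0.65 with a median of 0.13 (2.10-fold), and its receptor Cxcr4 from -4.80 to 5.53 with a median of -0.10 (7.30-fold, n = 101). Both ends of Cxcr4 were limit-rich arrays, and on the 86 other arrays it ran from -0.81 to 1.82 (2.50-fold). Ccl19 ran from -1.02 to 2.04 with a median of -0.09 (2.98-fold) and Ccl21c from -0.72 to 1.64 with a median of 0.01 (1.80-fold). The Ccl21 genes of the mouse are near-identical copies, so their probes cannot be told apart with certainty. Ccr7, the receptor of both, had a median of -0.68 and a 1.63-fold range, but ran from -1.42 to 4.41. The value of 4.41 was again that of mouse 26, and the next mouse had 1.13.

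Of the 6 remaining ligands, 3 had a range above 2-fold. Ccl25, which draws T cells to thymus and gut, ran from -1.23 to 2.77 with a median of -0.07 (3.27-fold). Ccl27a, known from skin, ran from -1.78 to 0.67 with a median of -0.06 (2.18-fold), and Ccl24, an eosinophil chemokine, from -0.74 to 1.22 with a median of 0.01 (2.07-fold). Ccl22 ran from -2.21 to 1.06 with a median of -0.10 (1.89-fold), and Ccl17, its partner at Ccr4, from -0.22 to 0.56 with a median of 0.06 (1.43-fold). Ccl1 ran from -0.75 to 0.97 with a median of 0.10 (1.74-fold). Ccr4 ran from -3.16 to 6.64 with a median of 0.11 (5.23-fold, n = 100), its highest value lying just below the limit of the scale. Both ends were limit-rich arrays, and on the 86 other arrays it ran from -2.23 to 1.09 (2.36-fold).

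The promoter windows of 4 of these genes are shown because they are ligands of Cxcr2 and Cxcr3 whose values are paired below and that the promoter table holds. They are the RefSeq windows of assembly GRCm38.p6, from 250 bases before to 50 after the transcription start, and matches to the kappa B consensus (the site that NF-kB binds) and to GAAA, any 2 bases and GAAA (the repeat of the interferon-stimulated element) are in capitals. Both strands were searched, and overlapping matches are merged in the capitals. The windows lie at chr5:90890995-90891294 (plus strand) for Cxcl1, chr5:90903649-90903948 (plus) for Cxcl2, chr5:92348840-92349139 (minus) for Cxcl10 and chr5:92328030-92328329 (minus) for Cxcl9.
Cxcl1: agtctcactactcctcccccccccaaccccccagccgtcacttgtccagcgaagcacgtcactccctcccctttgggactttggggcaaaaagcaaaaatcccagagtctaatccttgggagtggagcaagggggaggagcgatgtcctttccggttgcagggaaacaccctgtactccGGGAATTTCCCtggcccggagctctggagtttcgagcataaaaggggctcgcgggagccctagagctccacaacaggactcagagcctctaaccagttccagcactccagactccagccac
Cxcl2: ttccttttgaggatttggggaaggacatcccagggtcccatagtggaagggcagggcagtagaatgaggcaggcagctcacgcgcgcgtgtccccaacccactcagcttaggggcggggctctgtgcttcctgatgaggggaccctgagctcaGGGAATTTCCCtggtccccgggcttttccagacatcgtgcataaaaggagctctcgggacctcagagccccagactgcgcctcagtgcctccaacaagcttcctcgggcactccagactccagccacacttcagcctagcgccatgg
Cxcl10: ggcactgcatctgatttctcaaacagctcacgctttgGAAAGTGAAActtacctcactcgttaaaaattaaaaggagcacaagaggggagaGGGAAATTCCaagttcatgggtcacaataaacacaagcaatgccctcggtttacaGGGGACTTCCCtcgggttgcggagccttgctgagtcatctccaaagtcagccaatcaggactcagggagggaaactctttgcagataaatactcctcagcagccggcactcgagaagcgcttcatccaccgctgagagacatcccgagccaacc
Cxcl9: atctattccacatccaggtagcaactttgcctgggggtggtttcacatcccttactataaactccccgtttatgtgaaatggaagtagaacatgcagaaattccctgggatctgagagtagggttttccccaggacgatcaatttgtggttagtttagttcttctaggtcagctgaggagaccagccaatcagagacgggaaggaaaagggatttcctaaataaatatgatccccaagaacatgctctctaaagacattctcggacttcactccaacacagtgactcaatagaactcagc

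Cxcl1 and Cxcl2 each held a kappa B match, from base -71 and from base -97 counted from the start, and the matched letters GGGAATTTCCC were the same in both. Cxcl10 had kappa B matches from -159 and from -104, and the GAAA repeat from -213. Cxcl9 had neither. Of the 34 genes, 25 had a window in the table, in 28 windows. The kappa B consensus stood in 25% of these windows and in 8.46% of 32851 promoter windows, and the GAAA repeat in 10.7% and 3.44%. A match is a description of letters and not a binding site.

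The relations between ligands that share a receptor were then tested, with a limma fit of every probe on 1 gene and Benjamini-Hochberg adjustment over all 20632 probes. Of 8 measured pairs, 7 were positively correlated at an adjusted p under 0.05, and the median r over the 8 was 0.671. Ccl2 and Ccl7, which stand next to each other on chromosome 11, gave the highest r, 0.869 (rho = 0.914, adjusted p = 2.92e-29, n = 104), where 10.4% of all probes were positively and 17.5% negatively called with Ccl7. Cxcl9 and Cxcl10 followed with 0.833 (rho = 0.819, adjusted p = 3.00e-24), where 13.3% of probes were positively and 13.4% negatively called with Cxcl10. Cxcl1 and Cxcl2 gave 0.763 (rho = 0.776, adjusted p = 3.32e-18; 8.93% of probes positively and 12.9% negatively called with Cxcl2).

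Ccl3 and Ccl4 gave 0.702 (rho = 0.689, adjusted p = 3.04e-13; 5.55% of probes positively and 7.04% negatively called with Ccl4). Cxcl11 correlated with Cxcl10 at 0.639 (rho = 0.624, adjusted p = 1.74e-09) and with Cxcl9 at 0.593 (rho = 0.582, adjusted p = 3.25e-08), where 16.1% of probes were positively and 14.4% negatively called with Cxcl11. Ccl6 and Ccl9, neighbours on chromosome 11, gave 0.362 (rho = 0.303, adjusted p = 0.00474; 3.5% of probes positively and 5.49% negatively called with Ccl9), with 0.292 on the 86 arrays and 0.713 on the limit-rich ones. Ccl17 and Ccl22, both ligands of Ccr4 with 1 coding gene between them, did not pass (r = 0.0409, adjusted p = 0.802), where 13.0% of probes were positively and 14.8% negatively called with Ccl22. Ligands close together on a chromosome did not all follow each other. Ccl8, with 2 coding genes between it and Ccl7, correlated with Ccl7 at 0.206 and Cxcl15 with its neighbour Cxcl1 at -0.123. These 2 values were not tested. The permutation p was 1e-05, the smallest possible, for r and rho of 6 of the called pairs, and 0.00017 for r and 0.00191 for rho of Ccl6 and Ccl9.

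Of 17 measured pairs of a ligand and its receptor, 8 were positively and 1 negatively correlated, with a median r of 0.145. Ccr2 correlated with Ccl7 at 0.582 (rho = 0.566, adjusted p = 1.27e-08, n = 102) and with Ccl2 at 0.531 (rho = 0.532, adjusted p = 3.87e-07), where 14.2% of probes were positively and 24.8% negatively called with Ccr2. Cxcl13 and Cxcr5 gave 0.442 (rho = 0.338, adjusted p = 0.00175), where 0.383% of probes were positively and 0.131% negatively called. Cxcr2 correlated with Cxcl2 at 0.330 (rho = 0.275, adjusted p = 0.00355) and with Cxcl1 at 0.315 (rho = 0.303, adjusted p = 0.00566; 17.1% of probes positively and 19.8% negatively called). Cxcl16 and Cxcr6 gave 0.283 (rho = 0.345, adjusted p = 0.0438), where 3.81% of probes were positively and 4.49% negatively called. On the 86 arrays r was 0.316 for Cxcl1 and 0.290 for Cxcl2 with Cxcr2, and 0.332 for Cxcl16 with Cxcr6. On the limit-rich ones these were 0.623, 0.616 and 0.125.

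Ccl6 and Ccr1 gave 0.459 (rho = 0.405, adjusted p = 5.84e-05; 8.36% of probes positively and 10.0% negatively called with Ccr1), with 0.542 on the 86 arrays and -0.0127 on the limit-rich ones. Ccl19 and Ccr7 gave 0.406 (rho = 0.243, adjusted p = 0.000553; 5.71% of probes positively and 6.37% negatively called), and 0.261 without the 2 mice farthest from the median of Ccr7. Cxcl12 and Cxcr4 were the negative pair (r = -0.318, rho = -0.381, adjusted p = 0.00501), at -0.595 on the 86 arrays and -0.363 on the limit-rich ones, where 16.0% of probes were positively and 23.4% negatively called with Cxcr4. Its r with the first principal component as a covariate was 0.0939 and did not pass.

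Both permutation p were 1e-05 for the pairs of Ccr2. For Ccl19 and Ccr7 they were 0.00239 for r and 0.01257 for rho, and for Cxcl12 and Cxcr4 0.00493 and 8e-05.

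The pairs of Cxcr3 did not pass, at r = 0.0620 for Cxcl9, -0.00706 for Cxcl10 and 0.0709 for Cxcl11 (adjusted p = 0.769, 0.979 and 0.730), where 6.87% of probes were positively and 6.16% negatively called with Cxcr3. Without the 2 mice farthest from the median of Cxcr3, Cxcl10 gave 0.338 (adjusted p = 0.0147) and Cxcl9 0.312. Ccr1 did not pass with Ccl3 (0.120), Ccl7 (0.145) or Ccl9 (0.133), nor Ccr4 with Ccl17 (-0.0857) or Ccl22 (0.0954), where 4.22% of probes were positively and 2.49% negatively called with Ccr4. On the 86 arrays r was 0.288 for Ccl3, 0.314 for Ccl7 and 0.208 for Ccl9 with Ccr1, and -0.315 for Ccl17 and 0.179 for Ccl22 with Ccr4. On the limit-rich ones it was -0.281 for Ccl3, -0.0765 for Ccl7 and 0.00103 for Ccl9, and 0.233 for Ccl17 and 0.0374 for Ccl22. Ccl21c and Ccr7, a pair added after the data were seen, gave 0.155 (adjusted p = 0.367).

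**Figure D2:**
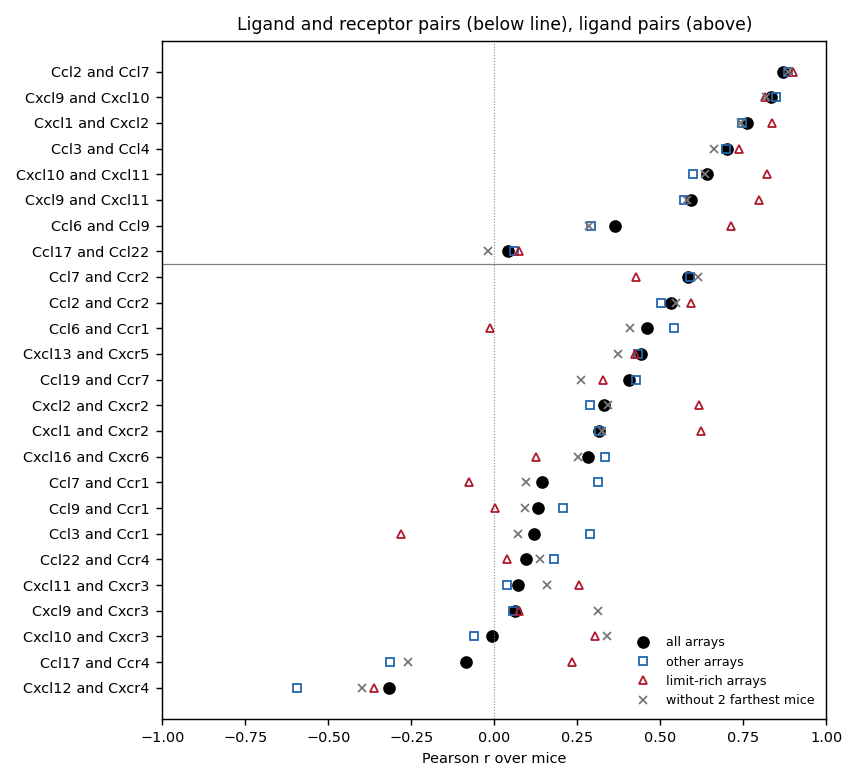
Pearson r over mice for 8 pairs of ligands of 1 receptor (above the line) and 17 ligand and receptor pairs (below it), over all arrays (black), on the 86 other arrays (blue squares), on the 18 limit-rich arrays (red triangles) and without the 2 mice farthest from the median (crosses). Ligand pairs reached 0.869 and the highest ligand and receptor pair 0.582.

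Over all 595 pairs of the 35 probes the median r was 0.0624, with 60 pairs at 0.5 or above and 3 at -0.5 or below. Cxcl2 correlated with Ccl2 at 0.866 and with Ccl3 at 0.831. Ccl6 correlated best with Cxcl16 (0.838), and Cxcl14 probe 1 with Cxcl16 (0.832). Ccl21c ran against Cxcl16 (-0.527) and Ccl6 (-0.523), and Cxcr4 against Cxcl11 (-0.527). These are descriptions over up to 104 mice that share the arrays and the pool. The same counts were not made over pairs of all probes, so whether 60 of 595 is a high share was not tested.

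**Figure D3:**
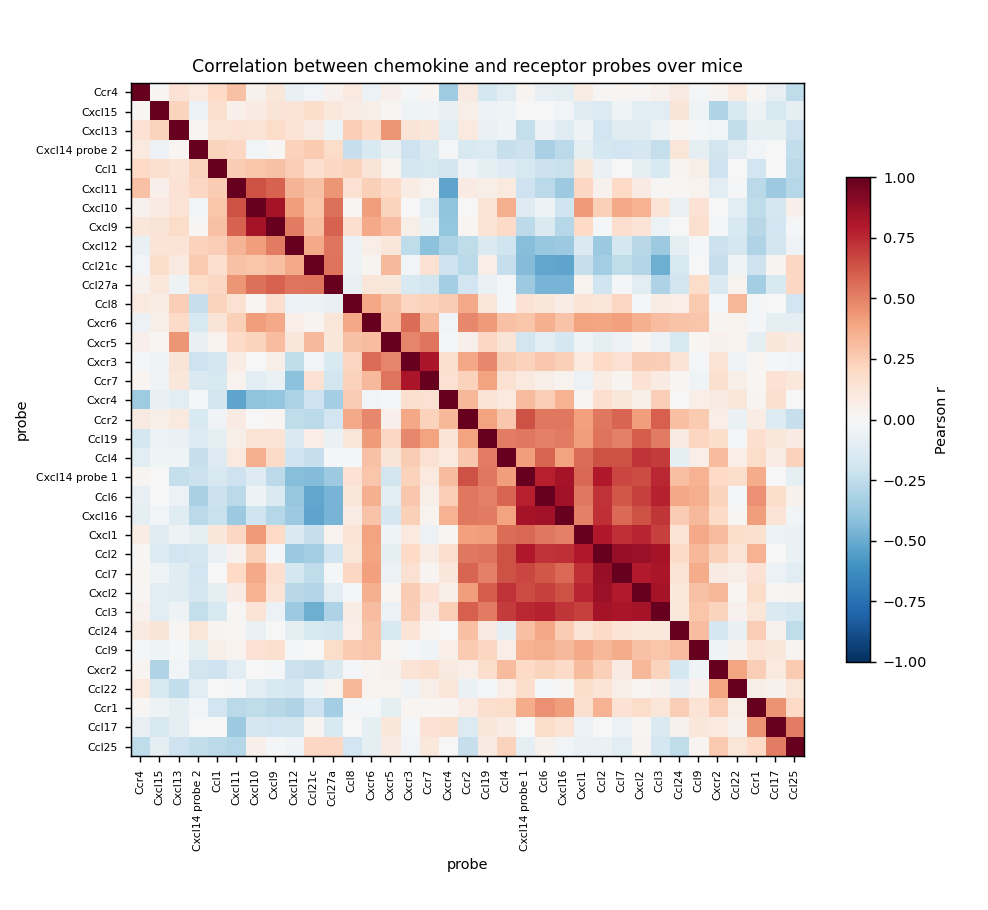
Pearson r over mice between the 35 probes, ordered so that probes with like correlations stand together, from -1 (blue) to 1 (red). The red block at the lower right holds Ccl2, Ccl3, Ccl6, Ccl7, Cxcl1, Cxcl2 and Cxcl16, and the smaller block at the upper left holds Cxcl9, Cxcl10 and Cxcl11.

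Each probe was next set against scores of marker gene lists. A score is the mean over the measured genes of a list, each centred and scaled to an SD of 1 over mice, and each probe was fitted on it with limma, adjusted over all 20633 probes. The lists hold no chemokine or receptor of the families described here. In liver RNA, more cells of a type and more RNA per cell cannot be told apart. Scores were not independent: the macrophage score correlated with the stellate cell and fibroblast score at 0.722, the acute phase score at 0.687 and the NF-kB response score at 0.621.

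The macrophage score, from 13 genes such as C1qa and Cd68, was positively correlated with 18 of the 35 probes and negatively with 6, where 15.4% and 25.9% of all probes were called. The positive share of 51.4% of the 35 was above that of all probes, and the negative share of 17.1% was below it. Of the 13 genes, Clec4f (-0.0449) and Cd163 (-0.336), which mark resident macrophages, did not follow the rest of their list. Ccl6 gave the highest r, 0.898 (rho = 0.895, adjusted p = 6.57e-36), with 0.890 on the 86 arrays, 0.956 on the limit-rich ones and 0.890 without the 2 farthest mice. Ccl3 gave 0.788 (rho = 0.799), Cxcl16 0.769 (rho = 0.776), Cxcl14 probe 1 0.724 (rho = 0.739) and Ccl2 0.681 (rho = 0.683), and each lay between 0.667 and 0.890 within both sets of arrays. Ccr2 gave 0.550. Ccr1 gave 0.398, at 0.510 on the 86 arrays and -0.143 on the limit-rich ones. Lower in mice with a high score were Ccl21c (-0.574, rho = -0.661, adjusted p = 4.02e-09), Ccl27a (-0.505), Cxcl12 (-0.433), Cxcl14 probe 2 (-0.310) and Cxcl11 (-0.261). For Ccl6 and Ccl21c, as for the leading probe of the NF-kB, stellate cell, interferon gamma, B and plasma cell and hepatocyte scores below, both permutation p were 1e-05. With the first principal component as a covariate 0 probes were negative for the macrophage score.

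The NF-kB response score, from 10 target genes such as Nfkbia and Nfkb2, was positively correlated with 16 probes and negatively with 3, where 16.1% and 25.2% of all probes were called. Of the 10, the cytokines Tnf (0.243) and Il1b (-0.193) did not closely follow the rest of their list. Ccl2 led with 0.806 (rho = 0.794, adjusted p = 4.32e-22; 0.769 on the 86 arrays and 0.898 on the limit-rich ones). Cxcl2 gave 0.788 (rho = 0.785), Ccl3 0.770 (rho = 0.755), Cxcl1 0.740 (rho = 0.761) and Ccl7 0.711 (rho = 0.717). The negative probes were Cxcl12 (-0.366), Ccl21c (-0.338) and Cxcl14 probe 2 (-0.322), and 1 probe was negative with the first principal component as a covariate.

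When both scores stood in 1 fit, an alternative chosen after the data were seen, 15 probes were positively and 1 negatively correlated with the NF-kB score at a given macrophage score, where 11.4% and 12.6% of all probes were called. The partial r was 0.668 for Ccl2, 0.651 for Cxcl2, 0.635 for Cxcl1, 0.582 for Ccl3 and 0.567 for Ccl7, and Ccl24 was negative (-0.378, adjusted p = 0.00124). With the macrophage score at a given NF-kB score 11 were positive and 6 negative, where 13.1% and 15.9% of all probes were called. Ccl6 led with a partial r of 0.843, followed by Cxcl16 (0.631) and Ccl3 (0.620), with Ccl27a at -0.536, Ccl21c at -0.493 and Cxcl11 at -0.402.

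**Figure D4:**
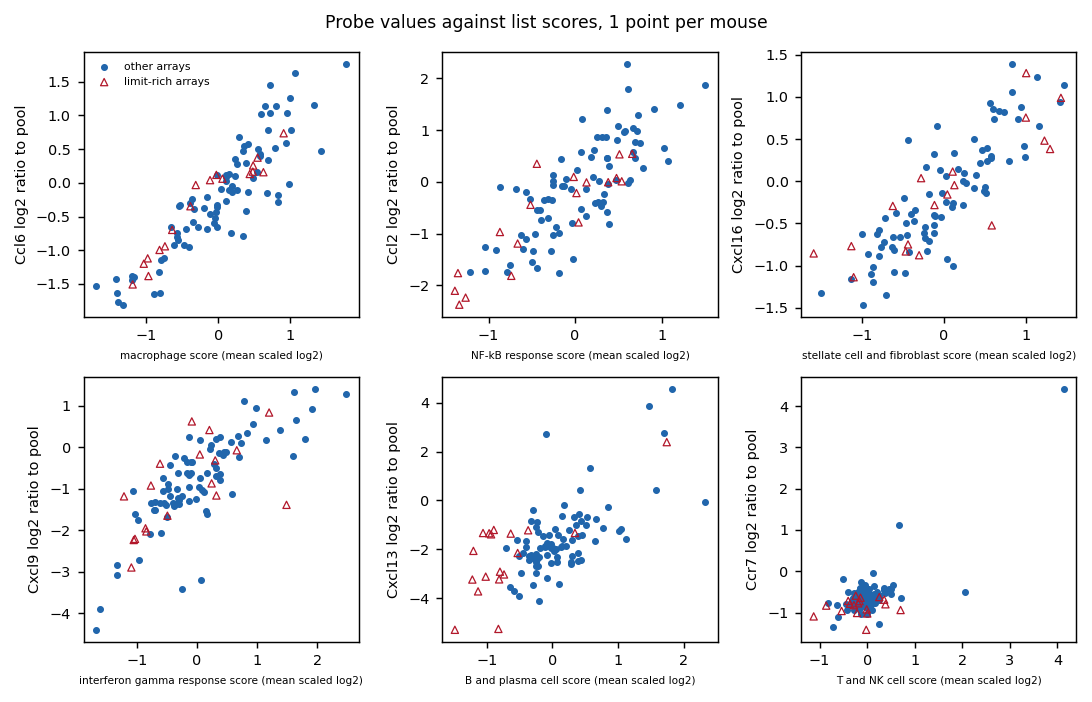
Log2 ratio of mouse to pool (vertical) against a list score (horizontal, mean of scaled log2 values) for 6 probes, 1 point per mouse, with the 86 other arrays as blue circles and the 18 limit-rich arrays as red triangles. Ccl6 followed the macrophage score at r = 0.898, and 1 mouse at 4.41 stands alone in the panel of Ccr7.

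The stellate cell and fibroblast score, from collagen and related genes, was positively correlated with 14 probes and negatively with 10. Of all probes, 17.3% were positively and 29.5% negatively called. The positive share of 40% of the 35 was above that of all probes, and the negative share of 28.6% was near it. Of its 12 genes, Col1a2 correlated with the rest of the list at 0.888, and the stellate cell markers Des at -0.135, Acta2 at 0.275, Lrat at 0.277 and Reln at 0.362. Cxcl16 gave 0.844 (rho = 0.852, adjusted p = 2.09e-27) and Cxcl14 probe 1 gave 0.830 (rho = 0.846), with 0.842 to 0.879 for both within each set of arrays. Ccl6 gave 0.771, Ccl3 0.686 and Ccl2 0.664. The lowest were Ccl21c (-0.478), Ccl27a (-0.431), Cxcl9 (-0.349), Cxcl12 (-0.344) and Cxcl11 (-0.340). With the first principal component of all probes as a covariate, Cxcl12 turned to 0.418 and passed the other way (adjusted p = 0.000318), Ccl27a (0.252) and Cxcl9 (0.181) turned without passing, and 1 probe in all was negative. The acute phase score, of proteins the liver secretes in inflammation, had 14 positive probes and 1 negative, where 8.78% and 10.2% of all probes were called. Of its 9 genes, Hp (0.0806) and Cp (0.233) did not closely follow the rest of their list. Ccl6 gave 0.700, Cxcl16 0.681, Cxcl1 0.669, Cxcl14 probe 1 0.651 and Ccl3 0.635, and Ccl21c -0.343.

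The neutrophil score, from 8 genes such as Ngp and S100a8, had 15 positive and 6 negative probes, where 17.4% and 25.8% of all probes were called. Of the 8, Elane (0.0563) did not follow the rest of the list. Ccr2 gave 0.556, Ccl6 0.540, Cxcr4 0.522, Cxcl14 probe 1 0.463 and Cxcl16 0.460, and Ccl27a -0.496, Ccl21c -0.376, Cxcl12 -0.364, Cxcl14 probe 2 -0.264 and Cxcl9 -0.254. Of the ligands that draw neutrophils, Cxcl1 gave 0.255 (adjusted p = 0.0224) and Cxcl2 0.221 (adjusted p = 0.0514), and their receptor Cxcr2 gave 0.349. With the first principal component as a covariate 3 probes were positive and 0 negative. The bile duct score had 10 positive and 7 negative probes, where 18.8% and 25.9% of all probes were called. Cxcl14 probe 1 gave 0.591, Cxcl16 0.579, Cxcr4 0.522, Ccl2 0.435 and Ccl3 0.324. Negative were Cxcl9 (-0.538), Cxcl12 (-0.492), Cxcl10 (-0.490), Cxcl11 (-0.444) and Ccl27a (-0.399), with Cxcl9 at -0.510 on the 86 arrays and -0.702 on the limit-rich ones. With the first principal component as a covariate 0 probes were positive for the bile duct score, 3 were negative, and Ccl3 passed the other way (-0.298, adjusted p = 0.0437). For both scores the negative share of the 35 probes, 17.1% for neutrophil and 20.0% for bile duct, lay below that of all probes.

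The interferon gamma response score, from 10 genes such as Gbp2 and Irf1, was positively correlated with 6 probes and negatively with none, where 2.44% and 3.09% of all probes were called. Cxcl9 gave 0.772 (rho = 0.777, adjusted p = 4.44e-19), with 0.802 on the 86 arrays and 0.616 on the limit-rich ones. Cxcl10 gave 0.630 (0.705 on the 86 arrays and 0.299 on the limit-rich ones), Cxcl11 0.473, Cxcr6 0.464 and Ccl8 0.330.

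The B and plasma cell score, from 7 genes, had 3 positive probes and no negative one, where 1.31% and 1.06% of all probes were called. Of the 7, Blk (0.231) and Jchain (0.350) followed the rest of their list least. Cxcl13 gave 0.667 (rho = 0.561, adjusted p = 1.61e-11), with 0.650 on the 86 arrays and 0.743 on the limit-rich ones. Cxcr5 gave 0.632, at 0.731 on the 86 arrays and 0.126 on the limit-rich ones, and Ccl8 gave 0.483, at 0.184 and 0.669.

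The T and NK cell score had 6 positive probes and 2 negative ones, where 7.38% and 5.73% of all probes were called. Of its 13 genes, Klrb1c (-0.132), an NK cell marker, and Prf1 (-0.0348) did not follow the rest of their list, and Gzma followed it weakly (0.291). Mouse 26 had the highest score of all, and the counts changed with the mice left out. Ccr7 gave 0.757 but rho was 0.388, and r was 0.388 without the 2 mice farthest from the median score. Cxcr3 gave 0.663 (rho = 0.362, 0.436 without the 2 mice). Cxcr5 gave 0.431 (0.475 without them), Cxcr6 0.291 (0.424) and Cxcl13 0.288 (0.491). Cxcl12 was at -0.334 over all mice and at 0.354 without the 2 mice, where it passed the other way (limma adjusted p = 0.0109). Ccl27a was at -0.323 and 0.0997, so neither negative direction held. Without mouse 26 alone 4 probes were positive and none negative, and without the 2 mice 10 were positive and 1 negative.

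The endothelial score had 2 positive probes and 1 negative one, where 3.35% and 2.94% of all probes were called: Ccl6 (0.342), Cxcl16 (0.298) and Ccl22 (-0.305). Of its 8 genes, Clec4g (0.119) and Cdh5 (0.246) did not closely follow the rest of their list. The hepatocyte score, added to the tested lists after the data were seen, had 5 positive and 9 negative probes. Of all probes, 25.8% were positively and 20.3% negatively called. The positive share of 14.3% of the 35 lay below that of all probes, and the negative share of 25.7% was a little above it. Of its 6 genes, Ttr (0.129) did not closely follow the rest. Ccl25 led with 0.620 (rho = 0.645, adjusted p = 3.55e-11), with 0.631 on the 86 arrays and 0.618 on the limit-rich ones. Ccl27a gave 0.479, Ccl21c 0.390, Ccl17 0.372 and Cxcl12 0.306. The lowest were Cxcl14 probe 1 (-0.388), Ccl3 (-0.385), Ccr2 (-0.382), Cxcl16 (-0.363) and Ccl2 (-0.316).

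**Figure D5:**
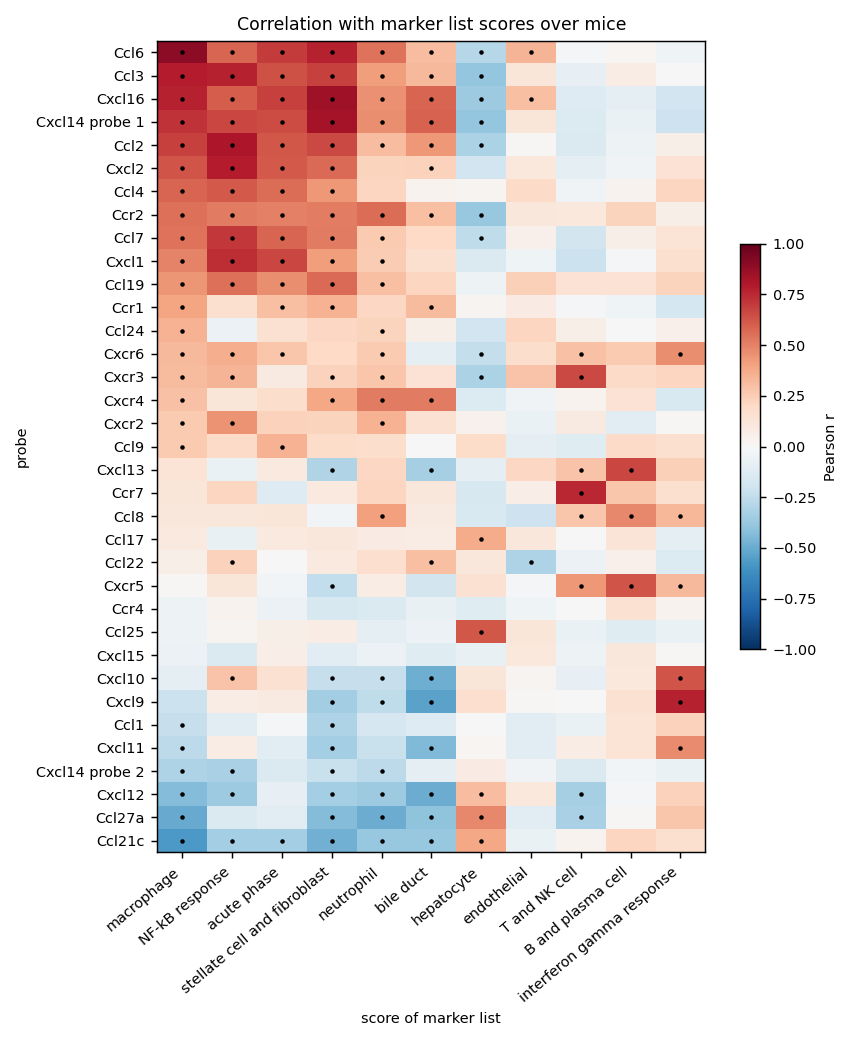
Pearson r over mice between each of the 35 probes (rows) and the scores of 11 marker gene lists (columns), from -1 (blue) to 1 (red), with a dot where the limma adjusted p was under 0.05. Ccl6 stands at the top with 0.898 for the macrophage score, and Cxcl9 holds the highest value for the interferon gamma response score, 0.772.

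Other genes of the chemokine system were described from a list of 19, of which 15 were measured. With the macrophage score 6 of them were positively and 1 negatively correlated, where 15.4% and 25.9% of all probes were called. Rgs1, which dampens signals of chemokine receptors, gave 0.826, and Ccrl2, a receptor that binds the attractant chemerin and does not signal, gave 0.796. Pf4, a platelet chemokine, gave 0.695, and Ackr3, a scavenging receptor of Cxcl12, gave 0.513. Dpp4, a protease that trims chemokines, gave -0.598. With the NF-kB score 6 were positive and 2 negative, where 16.1% and 25.2% of all probes were called, led by Ccrl2 (0.660) and Rgs1 (0.645). High values were not particular to these 2 scores. The stellate cell and fibroblast score had 6 positive and 2 negative, where 17.3% and 29.5% of all probes were called. Ccrl2 gave 0.783 there, Rgs1 0.701, Ackr3 0.661 and Pf4 0.605. For the neutrophil score 5 were positive and 2 negative, where 17.4% and 25.8% of all probes were called, led by Pf4 (0.696). With the interferon gamma response score 2 were positive, Xcl1 (0.535), a chemokine of T and NK cells, and Dpp4 (0.305), and none was negative, where 2.44% and 3.09% of all probes were called. Ackr1, which binds chemokines on venous endothelium, gave 0.724 with the endothelial score. For that score 1 gene was positive and 1 negative, where 3.35% and 2.94% of all probes were called. Ppbp, a further platelet chemokine, gave 0.614 with the B and plasma cell score and 0.605 with the neutrophil score. For the B and plasma cell score 2 were positive and 0 negative, where 1.31% and 1.06% of all probes were called.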

How the data were processed

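Liver RNA of 104 mice was measured on 2-colour arrays. The values deposited by the authors are log ratios, read here as log10 from the limits at exactly 2 below and above 0. The labels give neither base, dyes nor normalization. Values were converted to log2. Those at the limits (12821 and 13265, 1.07% of all) counted as not measured, and 1.69% were missing. Probes were named through the platform annotation, which is old, by which 14744 had 1 symbol, 18 several and 8774 none.

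Every probe was fitted on each list score or gene with limma 3.58.1 (lmFit and eBayes, R 4.3.3), adjusted by Benjamini and Hochberg, threshold 0.05. A gene's own probes were left out of its fit. Pearson r and Spearman rho each had 100000 two-sided permutations in Python 3.11.15, with 1e-05 the smallest p they can give. Tested on simulated data against the macrophage score, the fit called 16, 41, 48 and 50 of 50 probes at true r of 0.3, 0.4, 0.5 and 0.6. At a true r of 0 it called 8 of 20433. Each simulated probe was permuted over mice on its own, so the real correlation between probes was lost. Few probes had a true correlation there, unlike the real fits, so these rates need not hold for the real calls.

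The members, lists and pairs were chosen with earlier results of these data known. By rule the text names every member with its lowest, median and highest value, up to 5 called members per score and direction, and every called pair. Ccr1 and Ccr2 beside the macrophage score and Cxcl1, Cxcl2 and Cxcr2 beside the neutrophil score were added after their values were seen. Alternatives left out or adjusted for the limit-rich arrays, kept the limit values, used ranks, left out 2 mice, required a value on every array, or added the first principal component.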

Additional observations from a re-analysis of the deposited data

How the results depend on the processing

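No paired analysis was possible because all mice form 1 group. Over 108 named correlations, the alternatives kept direction and call in 666 values, lost the call in 59, gained it in 6 and turned the sign in 32. The first principal component as a covariate alone kept 60 of the 108, lost the call in 26 and turned the sign in 20. Counts also depended on settings. The first principal component held 15.6% of variance. In absolute value its r was 0.803 with the stellate cell and fibroblast score, 0.748 with bile duct, 0.725 with macrophage and 0.670 with neutrophil. As a covariate it left 0 negative probes for the macrophage, neutrophil and hepatocyte scores and 1 for the stellate cell and NF-kB scores. Negative probes then numbered 3 for the bile duct and 6 for the T and NK cell score, and positive ones 3 for neutrophil and 0 for bile duct. The cause of these changes was not tested. Ranks gave 3 positive and 0 negative probes for the T and NK cell score, 4 positive for endothelial, 4 negative for acute phase and 5 negative for NF-kB. Without the 2 mice farthest from the median, T and NK cell gave 10 positive and 1 negative, neutrophil 3 negative and endothelial 0 negative. Endothelial also gave 0 negative with limit-rich arrays as a covariate. With probes measured on every array, T and NK cell and endothelial gave 0 negative and 4 of 9 ligand and receptor pairs were called, fewer pairs being measured. Without mouse 26, T and NK cell gave 0 negative. With the NF-kB score as a covariate 11 probes were positive for macrophage, and with the macrophage score 1 was negative for NF-kB. Under the natural logarithm 14 of 35 ranges were above 2-fold.

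These r changed sign with the first component as a covariate. For Cxcl12 they were 0.0897 (macrophage), 0.142 (neutrophil), 0.418 (stellate cell, now called positive), 0.00369 (bile duct), 0.0187 (NF-kB) and 0.0939 with Cxcr4. For Ccl27a they were 0.252 (stellate cell) and 0.216 (bile duct), for Ccl21c 0.0372 (neutrophil) and 0.00242 (NF-kB), and for Cxcl9 0.182 (neutrophil) and 0.181 (stellate cell). Cxcl11 gave 0.0785 (macrophage), Cxcl16 -0.105 and Cxcl14 probe 1 -0.0941 (neutrophil), Ccl3 -0.298 (now called negative) and Ccl2 -0.0211 (bile duct), Ccl3 -0.162 and Ccl7 -0.00257 with Ccr1, and Cxcl10 0.175 with Cxcr3. In ranks Cxcl12 gave 0.156 with the T and NK cell score and Cxcl10 0.255 with Cxcr3 (now called positive). Ccl17 gave -0.0205 with Ccl22 and Ccl21c -0.0420 with Ccr7 in ranks. Without the 2 farthest mice Cxcl12 gave 0.354 (now called positive) and Ccl27a 0.0997 with the T and NK cell score. In that setting Cxcl10 gave 0.338 with Cxcr3 (now called positive), Ccl17 -0.0174 with Ccl22 and Ccl21c -0.0204 with Ccr7. With limit values kept, Ccr4 gave 0.0444 with Ccl17 and -0.0314 with Ccl22. With the macrophage score as a covariate Ccl21c gave 0.0282 with NF-kB. Signal over background was not analysed here, so it is not known which probes lay near it.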
